A study of Homo sapiens with 6 samples.

Results

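The pentose phosphate pathway genes are described here in cells kept at low oxygen for 24 h. The members were chosen by name as enzymes of the pathway's oxidative and non-oxidative branches. They are 7 of the 58478 genes in the table: PGLS and PGD of the oxidative branch, and RPIA, RPE, TKT, TALDO1 and TKTL1 of the non-oxidative branch. The study sequenced RNA from 6 libraries labelled Huh7, a line from a human hepatocellular carcinoma, with a wild-type genotype in the labels. The 3 normoxia libraries came from cells at 21% oxygen and the 3 hypoxia libraries from cells at 1% oxygen, both for 24 h. All cells shared the same serum-supplemented DMEM with antibiotics and 5% CO2, and ribosomal RNA was removed before strand-specific, paired-end libraries were made. The table's columns give the group of a library but no replicate number of the labels, so libraries are called normoxia C1 to C3 and hypoxia C4 to C6.

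The pathway takes glucose 6-phosphate out of glycolysis. Its oxidative branch makes NADPH, the reducing agent for lipid synthesis and for the glutathione and thioredoxin systems, and ends in ribulose 5-phosphate. The non-oxidative branch turns that sugar into ribose 5-phosphate, the precursor of nucleotides, and passes carbon back and forth to glycolysis through reversible transfers of short carbon units.

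Total expected counts ranged from 37621426 to 40794783 per library. Within a group, any pair of libraries differed beyond counting error (chi-square per degree of freedom of 4.465 to 10.91), so none was treated as a copy of another. The labels call them biological replicates without describing separate cultures, so the p-values below measure the spread between these libraries. Of 10 hepatocyte markers, 7 stayed under 1 CPM (counts scaled by library size) in both groups, and AFP, APOA1, TTR and GPC3 had 0 counts in every library. The summed hepatocyte list was 8.87 to 10.7 CPM in normoxia and 20.8 to 21.6 CPM in hypoxia. The defining markers of the labelled cell type are therefore largely absent. Of the rest of the list, TF rose from 8.24 to 12.1 CPM, HNF4A from 1.30 to 7.01 and SERPINA1 from 0.0670 to 1.83. The 3 immune markers summed to 6.01 to 6.35 CPM in normoxia and 42.1 to 51.0 CPM in hypoxia through CD68, with PTPRC at 0. The 3 endothelial markers summed to 11.3 to 12.3 and 4.97 to 5.79 CPM. They moved in different directions: CDH5 fell from 9.15 to 0.453 CPM and VWF from 0.504 to 0.196, while PECAM1 rose from 2.11 to 4.86. The 4 fibroblast markers summed to 70.4 to 72.8 and 52.4 to 61.3 CPM, nearly all of it COL1A1 (means of 71.4 and 56.9 CPM). COL1A2 had 0 counts, and DCN and LUM were under 1 CPM. The 2 erythroid markers summed to 0.0755 to 0.125 and 0.173 to 0.419 CPM. The part of these shifts in the results below was not tested. The 5 HIF target controls, genes switched on by the hypoxia-inducible factors, all rose in hypoxia, as did 36.5% of all tested genes. Their median log2 change was 4.33.

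In hypoxia, PGLS and TKTL1 rose, PGD, RPIA, TKT and TALDO1 fell, and RPE did not pass the test. The 4 lower genes fell by 1.34-fold (PGD) to 2.02-fold (RPIA), PGLS rose 1.54-fold, and TKTL1 rose from near 0 to under 1 CPM. So 6 of 7 members passed edgeR's quasi-likelihood test at an adjusted p under 0.05, where 72.8% of all 17396 tested genes and 77.7% of the protein-coding ones passed. The groups did not overlap for these 6 members, as for 75.7% of all tested genes. Of all tested genes, 36.5% were higher and 36.3% lower in hypoxia. The members' median log2 change was -0.42, and the median of all tested genes was 0.02. All 7 passed the filter on low counts, TKTL1 only through its hypoxia libraries, which bears on any count or median that includes it. With libraries scaled by their totals in place of TMM factors, the median of all tested genes moved to -0.13. Each of the 6 called members kept its direction and call under that scaling, and RPE then passed as lower. In bulk RNA, fewer cells with a transcript and less of it per cell cannot be told apart.

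**Figure D1:**
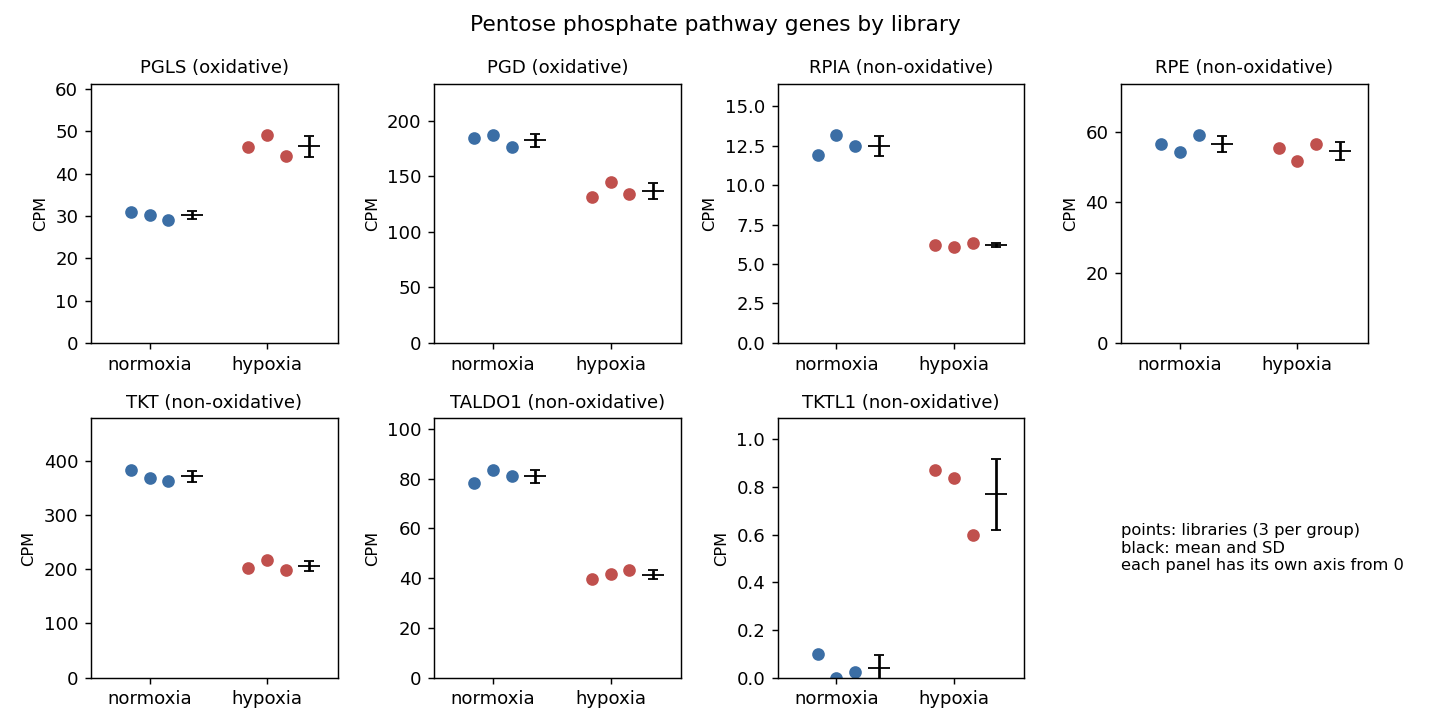
CPM (TMM-scaled) of the 7 pathway genes in each library, with 3 points per group and the mean and SD in black; each panel has its own axis from 0. The groups are apart for PGLS, PGD, RPIA, TKT, TALDO1 and TKTL1, and overlap for RPE (51.7 to 59.0 CPM over the 6 libraries).

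PGLS (ENSG00000130313.6) encodes 6-phosphogluconolactonase, which opens the lactone ring in the oxidative branch. It lies at chr19:17511629-17521288 on the plus strand (GENCODE release 29, GRCh38). Its level was 31.0, 30.2 and 29.1 CPM in normoxia C1 to C3 and 46.4, 49.0 and 44.0 CPM in hypoxia C4 to C6. Every hypoxia library was above every normoxia library. The means were 30.1 ± 0.956 and 46.5 ± 2.48 CPM (SD, n = 3 each), a log2 change of 0.63 ± 0.06 (SE) with an adjusted p of 2.55e-06 in edgeR. Of all tested genes, 73.3% had a lower log2 change. Across alternative settings the log2 change of PGLS ran from 0.45 to 0.67.

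PGD (ENSG00000142657.20, chr1:10398592-10420144, plus strand) encodes 6-phosphogluconate dehydrogenase, which makes NADPH and ribulose 5-phosphate. Its level was 184.8, 186.7 and 176.0 CPM in the normoxia libraries and 131.2, 144.6 and 134.0 CPM in the hypoxia libraries. The groups did not overlap. From 182.5 ± 5.72 to 136.6 ± 7.08 CPM (SD, n = 3 each), PGD changed by a log2 value of -0.42 ± 0.05 (edgeR, adjusted p = 1.64e-05). This is 1.34-fold lower. PGLS and PGD, consecutive enzymes of the same branch, thus changed in opposite directions.

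RPIA (ENSG00000153574.8, chr2:88691644-88750935, plus strand) encodes ribose 5-phosphate isomerase, which converts ribulose 5-phosphate to ribose 5-phosphate. Its level was 11.9, 13.1 and 12.5 CPM in normoxia and 6.20, 6.05 and 6.35 CPM in hypoxia. All hypoxia libraries were below all normoxia libraries. The log2 change was -1.01 ± 0.09 (edgeR, adjusted p = 1.82e-06), and 11.4% of tested genes had a lower log2 change.

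RPE (ENSG00000197713.14, chr2:210002565-210022259, plus strand) encodes ribulose-phosphate 3-epimerase, which turns the same substrate into xylulose 5-phosphate. Its level was 56.6, 54.5 and 59.0 CPM in normoxia and 55.3, 51.7 and 56.7 CPM in hypoxia. The groups overlapped. The log2 difference was -0.06 ± 0.05 with a 95% interval of -0.17 to 0.06 (edgeR, adjusted p = 0.361). Scaled by library totals it was -0.21 ± 0.06 (adjusted p = 0.00701) and passed the test. Exons of RPE share 837 bases with exons of KANSL1L on the opposite strand, and KANSL1L rose from 5.12 to 15.2 CPM (log2 change 1.57 ± 0.11, edgeR adjusted p = 3.29e-07). Whether counting used the strand is not given in the sources used here, so reads of RPE and KANSL1L may have been mixed, and how much was not tested. RPEP4, a processed copy, averaged 1.03 CPM at 21% oxygen and 0.278 CPM at 1%, and reads shared with RPE cannot be placed with certainty.

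TKT (ENSG00000163931.15, chr3:53224707-53256052, minus strand) encodes transketolase, which moves 2-carbon units between sugar phosphates and depends on thiamine diphosphate. Its level was 382.9, 369.0 and 363.6 CPM in normoxia and 202.9, 217.1 and 198.3 CPM in hypoxia. The lowest normoxia library was well above the highest hypoxia library. TKT fell from 371.8 ± 9.94 to 206.1 ± 9.78 CPM (SD, n = 3 each), 1.80-fold, with a log2 change of -0.85 ± 0.05 (edgeR, adjusted p = 3.31e-08).

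TALDO1 (ENSG00000177156.10, chr11:747329-765024, plus strand) encodes transaldolase, which moves 3-carbon units in the same branch. Its level was 78.3, 83.4 and 81.0 CPM in normoxia and 39.6, 41.6 and 43.1 CPM in hypoxia. Here too the groups were apart. The log2 change was -0.97 ± 0.05, or 1.95-fold lower (edgeR, adjusted p = 2.54e-08), and 12.3% of tested genes had a lower log2 change.

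TKTL1 (ENSG00000007350.16, chrX:154295671-154330350, plus strand) encodes a transketolase-like protein whose activity as a transketolase is disputed. It had 4, 0 and 1 counts in normoxia and 31, 29 and 20 counts in hypoxia. The groups did not overlap, but normoxia lay near the limit of detection: 0 counts in normoxia C2 allow up to 0.0750 CPM (3 counts). The means were 0.0421 ± 0.0524 and 0.768 ± 0.147 CPM (SD, n = 3 each). Summed over each group and scaled by library size, 5 against 80 counts give a ratio of 18.3 with a 95% exact interval of 7.54 to 58.0, which covers counting error only. The fitted log2 change of 4.09 ± 0.63 passed the test (edgeR, adjusted p = 1.52e-04), but its size depended on the method. It was 0.41 with limma on log2(FPKM + 1) and 5.58 without normoxia C1. TKTL1 shares 167 exon bases with TEX28 on the opposite strand, which had 0 counts in every library. The other transketolase-like gene, TKTL2, also had 0 counts in all 6 libraries.

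**Figure D2:**
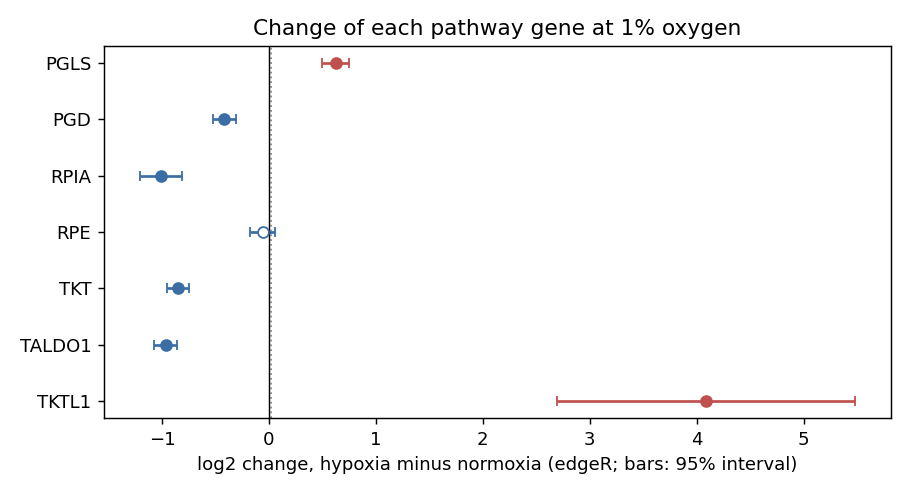
Log2 change in hypoxia of each pathway gene from edgeR, with 95% intervals; filled points passed an adjusted p of 0.05, the open point (RPE) did not, and the dotted line marks the median of all tested genes (0.02). PGLS and TKTL1 lie right of 0 and PGD, RPIA, TKT and TALDO1 left of it, with the widest interval for TKTL1.

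Levels can be compared between genes only per length, for which FPKM (fragments scaled by transcript length and library size) was recomputed from expected counts and the deposited transcript lengths. In all 3 normoxia libraries the order was TKT, PGD, TALDO1, RPE, PGLS, RPIA and TKTL1. TKT stood at 191.4 ± 12.1 FPKM, PGD at 91.4 ± 4.64, TALDO1 at 72.2 ± 1.89, RPE at 35.6 ± 3.41, PGLS at 31.0 ± 1.17 and RPIA at 7.26 ± 0.332 FPKM (SD, n = 3). TKTL1 was at 0.0423, 0 and 0.0107 FPKM. RPE and PGLS were close neighbours, at 32.4 to 39.2 and 29.9 to 32.2 FPKM, so their ranges nearly touched. Every other pair of neighbours was further apart than its spread.

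In all 3 hypoxia libraries the order was TKT, PGD, PGLS, RPE, TALDO1, RPIA and TKTL1. PGLS moved from the fifth place to the third and TALDO1 from the third to the fifth. In hypoxia TKT stood at 97.7 ± 5.05 FPKM, PGD at 62.5 ± 3.51, PGLS at 42.8 ± 1.99, RPE at 34.2 ± 0.777, TALDO1 at 33.3 ± 1.10, RPIA at 3.24 ± 0.105 and TKTL1 at 0.355 ± 0.143 FPKM (SD, n = 3). RPE was above TALDO1 within each hypoxia library, but by less than the spread between libraries, since their ranges of 33.5 to 35.0 and 32.5 to 34.6 FPKM overlapped.

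**Figure D3:**
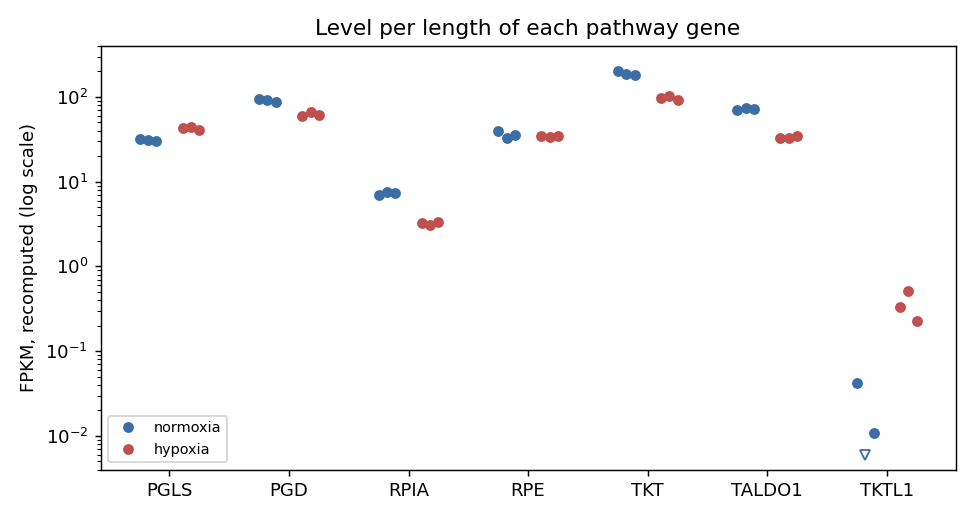
Recomputed FPKM of each pathway gene in each library on a log axis; the open triangle marks TKTL1 in normoxia C2, where its value was 0. TKT and PGD are the highest in both groups, and TALDO1 (72.2 to 33.3 FPKM on average) falls past PGLS (31.0 to 42.8 FPKM).

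Summed per branch, the oxidative pair PGLS and PGD held 122.4 ± 5.80 FPKM in normoxia and 105.3 ± 5.08 FPKM in hypoxia. The 5 non-oxidative genes held 306.4 ± 13.3 and 168.9 ± 3.53 FPKM (SD, n = 3 each). TKT alone made up 44.6 ± 0.875% of the sum of all members in normoxia and 35.6 ± 0.921% in hypoxia. These FPKM are scaled by library totals, without the TMM factors used for CPM. On that scale the oxidative sum was 116.5 to 128.1 FPKM in normoxia and 101.9 to 111.1 FPKM in hypoxia. The non-oxidative sum was 296.8 to 321.6 and 165.6 to 172.6 FPKM, so both sums were apart between the groups. The TMM factors were 1.05 to 1.06 in normoxia and 0.936 to 0.961 in hypoxia. Divided by them, the oxidative sums of the groups overlap, while the non-oxidative sums stay apart.

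Ratios of members within a library do not depend on how libraries are scaled against each other. Of 4 ratios computed, 3 were apart between the groups. PGLS over PGD was 0.336, 0.337 and 0.345 in normoxia and 0.720, 0.673 and 0.666 in hypoxia. RPIA over RPE was 0.177, 0.234 and 0.206 in normoxia and 0.0960, 0.0932 and 0.0947 in hypoxia. RPIA and RPE compete for the same substrate, and their transcripts did not move together. PGD over TKT averaged 0.478 ± 0.0120 in normoxia and 0.640 ± 0.0271 in hypoxia (SD, n = 3 each). Each of these 3 gave p = 0.1 in an exact two-sided permutation test (0.133 after Benjamini-Hochberg adjustment over the 4), the smallest p that 3 libraries against 3 allow, so none could reach 0.05. TKT over TALDO1 was 2.92, 2.52 and 2.53 in normoxia and 3.02, 3.11 and 2.67 in hypoxia. These groups overlapped (exact permutation p = 0.2, adjusted p = 0.2).

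Of the 63 transcripts of the 7 genes, 37 passed the filter in a test of all transcripts. There, 5 were higher and 8 lower in hypoxia and 24 did not pass. Of all 63530 tested transcripts 31.7% passed, 16.7% higher and 15% lower. The 5 higher ones were PGLS-201, PGLS-202, PGLS-204, PGLS-205 and TKTL1-202. The 8 lower ones were PGD-201, RPIA-201, TALDO1-201 and TKT-202, TKT-203, TKT-206, TKT-207 and TKT-208. None of the 11 tested RPE transcripts passed. RPIA has a single transcript in the table. For PGD, PGD-201 held 94.6 to 97.6% of the gene's counts in normoxia and 94.6 to 96.7% in hypoxia. For TALDO1, TALDO1-201 held 90.5 ± 1.40% and 87.5 ± 2.30% (SD, n = 3 each). RPE was divided among RPE-202 (41.6% in normoxia on average), RPE-208 (15.4%), RPE-206 (13.1%) and RPE-216 (10.5%). These shares are RSEM's division of shared reads.

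PGLS-201, the main protein-coding form, rose from 24.7 ± 0.0638 to 33.7 ± 2.02 CPM with a log2 change of 0.45 ± 0.07 (edgeR, adjusted p = 0.00365). The retained-intron form PGLS-204 was at 2.47, 2.97 and 2.86 CPM in normoxia and 6.30, 5.36 and 4.96 CPM in hypoxia. PGLS-205, also annotated as a retained intron, was at 3.19, 2.74 and 1.92 CPM and then 5.38, 6.08 and 5.92 CPM. Both were apart between the groups and passed the test, with log2 changes of 1.00 ± 0.17 (adjusted p = 0.00664) and 1.15 ± 0.23 (adjusted p = 0.0106, edgeR). The share of PGLS-201 was 80.7 ± 1.54% in normoxia and 72.8 ± 0.841% in hypoxia. The test of unequal change among PGLS transcripts did not pass (edgeR's diffSpliceDGE, adjusted p = 1.00). PGLS shares 261 exon bases with a long noncoding RNA on the opposite strand, PGLS-DT, which averaged 1.56 and 1.82 CPM in the 2 groups (edgeR, adjusted p = 0.456).

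TKT-202, the main transketolase transcript, was at 197.3, 202.1 and 189.7 CPM in normoxia and 100.3, 109.8 and 113.5 CPM in hypoxia. It fell 1.82-fold (log2 change -0.86 ± 0.06, edgeR adjusted p = 1.68e-04) and held 52.1 ± 1.53% of TKT counts in normoxia and 52.7 ± 4.33% in hypoxia. TKT-208, singled out after its values were seen because it holds under 10% of the gene, was at 31.2, 37.1 and 34.1 CPM in normoxia and 9.69, 9.30 and 10.6 CPM in hypoxia. It was 3.46-fold lower (log2 change -1.79 ± 0.10, edgeR adjusted p = 6.45e-05). Its share of TKT was 8.18, 9.88 and 9.13% in normoxia and 4.78, 4.33 and 5.36% in hypoxia.

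TKT-203, another coding form, was at 37.2, 45.9 and 52.3 CPM in normoxia and 34.3, 34.1 and 33.1 CPM in hypoxia. Its groups were apart by a small margin, and it lost its call (log2 change -0.41 ± 0.12, edgeR adjusted p = 0.0475) when any library but normoxia C1 was left out. The share of TKT-203 was 9.73, 12.2 and 14.0% in normoxia and 16.9, 15.9 and 16.8% in hypoxia. TKT-204, annotated for nonsense-mediated decay, had a log2 change of -0.83 ± 0.26 that did not pass (edgeR, adjusted p = 0.0555). Without hypoxia C6 it passed, at -0.60 ± 0.15 (adjusted p = 0.0396).

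Usage of transcripts was tested in 5 members, those with more than 1 tested transcript, and 0 of them passed, against 9.04% of 11000 genes. TKT had the lowest p (unadjusted p = 0.0234, diffSpliceDGE adjusted p = 0.172), the only member with an unadjusted p under 0.05. For TKT-208 relative to the change of TKT as a whole, the log2 difference was -0.92 with an adjusted p of 0.0773 over all transcripts.

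**Figure D4:**
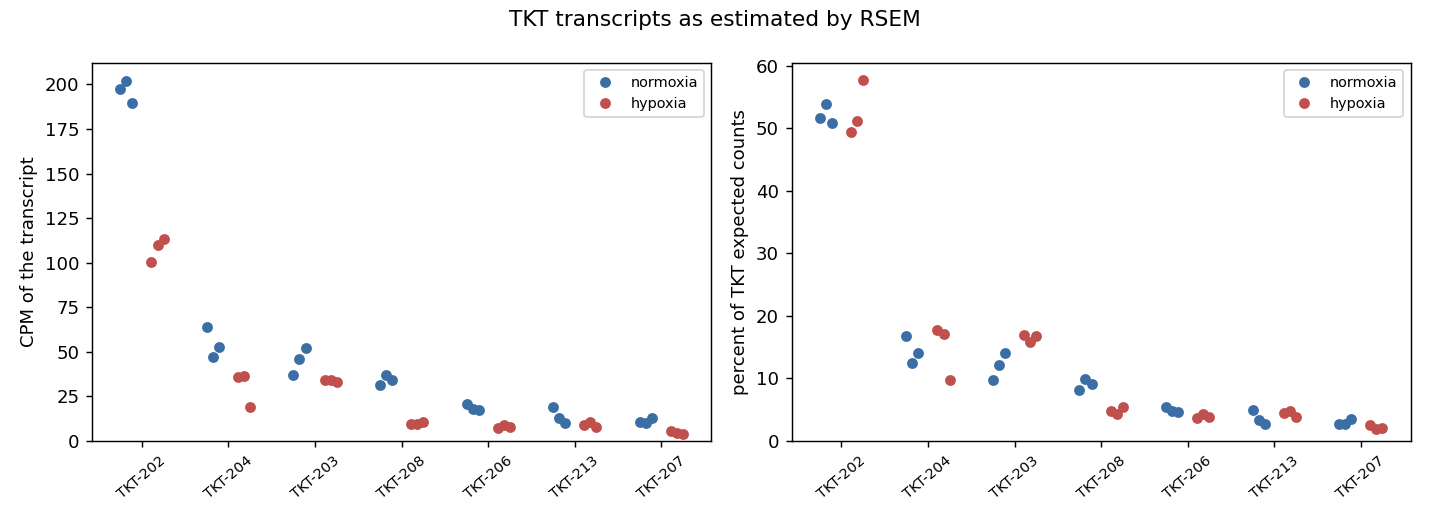
CPM (left) and percent of TKT expected counts (right) of the 7 highest TKT transcripts, with 1 point per library. TKT-202 falls with the gene and keeps about the same share (52.1% and 52.7% on average), while the share of TKT-208 is lower in hypoxia (9.06% and 4.82% on average).

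Promoters were taken as the 250 bases before each gene's start in RefSeq (GRCh38.p14), and all 7 members matched, TKTL1 with 2 starts. RefSeq starts differ from the GENCODE starts given above, and the PGD window lies wholly inside that gene's GENCODE span. The promoters were searched on both strands for ACGTG and GCGTG, the cores bound by hypoxia-inducible factors. TGACNNNGC, the core of the antioxidant response element bound by NRF2, was searched likewise. The promoters of 3 members are printed, 5′ to 3′ on the gene's strand with matches in capitals: PGLS, which rose, PGD, which fell and holds every motif, and TKT, which fell more and holds none.
PGLS, chr19:17511399-17511648, plus strand: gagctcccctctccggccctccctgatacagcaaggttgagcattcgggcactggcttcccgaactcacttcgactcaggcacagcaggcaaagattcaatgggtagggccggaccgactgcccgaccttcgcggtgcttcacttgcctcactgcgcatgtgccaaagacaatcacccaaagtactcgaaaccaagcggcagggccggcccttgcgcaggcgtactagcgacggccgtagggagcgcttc
PGD, chr1:10398814-10399063, plus strand: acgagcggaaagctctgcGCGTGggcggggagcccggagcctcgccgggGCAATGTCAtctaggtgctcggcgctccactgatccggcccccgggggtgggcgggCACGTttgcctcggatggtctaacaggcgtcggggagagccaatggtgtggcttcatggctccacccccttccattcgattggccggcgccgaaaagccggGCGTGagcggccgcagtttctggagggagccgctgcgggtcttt
TKT, chr3:53256023-53256272, minus strand: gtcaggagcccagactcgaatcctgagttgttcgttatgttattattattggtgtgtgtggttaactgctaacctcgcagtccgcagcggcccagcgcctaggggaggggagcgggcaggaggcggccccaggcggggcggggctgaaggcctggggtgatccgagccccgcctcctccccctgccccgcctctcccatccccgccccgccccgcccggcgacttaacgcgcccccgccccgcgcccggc
In PGD, GCGTG begins 232 and 44 bases before the RefSeq start. ACGTG lies on the opposite strand at 145 bases and TGACATTGC on the opposite strand at 201 bases. RPIA holds GCGTG on the opposite strand at 57 bases, and RPE holds TGACAGCGC at 151 bases. No match was found in the windows of PGLS, TKT, TALDO1 and both starts of TKTL1. Over 35116 promoters of the same length, 43.2% hold ACGTG or GCGTG and 10.9% hold TGACNNNGC, so 2 of 7 genes with either core and 2 of 7 with TGACNNNGC are descriptions of these windows only. The GC content was 61.6% for PGLS, 68.4% for PGD, 60.0% for RPIA, 64.4% for RPE, 70.4% for TKT, 78.4% for TALDO1, and 57.2% and 50.8% for the starts of TKTL1. The median over all promoters was 58.0%.

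Around the pathway, genes that use ribose 5-phosphate or feed related sugars split in direction. Among 12 tested of 15 listed, 4 rose and 6 fell (36.5% and 36.3% of all tested genes), and their median log2 change was -0.09. PRPS1, which makes phosphoribosyl pyrophosphate from ribose 5-phosphate, fell from 80.9 ± 1.40 to 31.0 ± 2.09 CPM (log2 change -1.38), and its relative PRPS2 fell from 39.6 to 19.2 CPM. RBKS, ribokinase, rose from 4.23 ± 0.158 to 14.9 ± 0.368 CPM (log2 change 1.81) and FGGY, a carbohydrate kinase, from 1.14 ± 0.115 to 4.68 ± 0.421 CPM (2.03). Of the other sugar kinases on the list, XYLB (10.5 CPM in both groups) and SHPK (16.9 and 18.4 CPM) did not pass. GLYCTK, glycerate kinase, rose from 3.94 to 9.69 CPM (1.30).

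Genes at the entry of the pathway and its balance with glycolysis moved mostly upward. All 11 tested of 13 passed, against 72.8% of all tested genes, with 9 higher (36.5% of all tested genes), 2 lower (36.3%) and a median log2 change of 1.31. HK2, a hexokinase that makes glucose 6-phosphate, rose from 155.7 ± 4.55 to 1466 ± 1.68 CPM (3.24). Another hexokinase, HK1, rose from 105.9 to 266.2 CPM (1.33). The glycolysis genes GAPDH, ALDOA and TPI1 rose by 1.92, 1.61 and 1.59. H6PD, which runs an oxidative branch inside the endoplasmic reticulum, rose by 0.37. TIGAR, a phosphatase known to favour the pathway over glycolysis, fell by 0.31. Of the phosphofructokinases, PFKM fell by 1.56, while PFKL rose by 1.31 and PFKP by 0.88.

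Other enzymes that supply NADPH or its precursor were mostly lower: of 13 tested of 14, 9 fell and 2 rose (median log2 change -0.75), where 36.3% of all tested genes fell and 36.5% rose. MTHFD1, of the folate cycle, fell from 19.9 ± 2.84 to 4.95 ± 0.906 CPM (log2 change -2.01). ME2, a mitochondrial malic enzyme that mainly uses NAD, changed by -1.71 and ME3, its NADP-dependent counterpart, by -1.22. IDH1, cytosolic isocitrate dehydrogenase, changed by -1.50, while mitochondrial IDH2 rose from 43.9 ± 1.65 to 149.9 ± 3.96 CPM (1.77). Cytosolic and mitochondrial isocitrate dehydrogenase thus changed in opposite directions.

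Among enzymes that use NADPH, 3 of 11 tested rose, 7 fell and 1 did not pass (14 listed, median log2 change -0.41, 36.5% and 36.3% of all tested genes higher and lower). GSR, glutathione reductase, fell from 113.6 ± 2.44 to 42.0 ± 1.75 CPM (-1.44), TXNRD3 by 1.23 and POR, which passes electrons to cytochromes P450, by 1.02. FASN, fatty acid synthase, fell from 946.4 ± 17.0 to 472.5 ± 27.3 CPM. BLVRB, biliverdin reductase B, rose by 0.57.

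Of the 7 proliferation genes, 6 fell and RRM2 did not pass (median log2 change -0.51), where 36.3% of all tested genes fell. CCNB1 fell by 1.54, PCNA by 1.11, TOP2A by 0.92 and RRM1 by 0.51 on the log2 scale. MKI67 and MCM2 fell less, by 0.32 and 0.29. Whether fewer cells were dividing, and whether that had a part in the members' changes, was not tested.

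**Figure D5:**
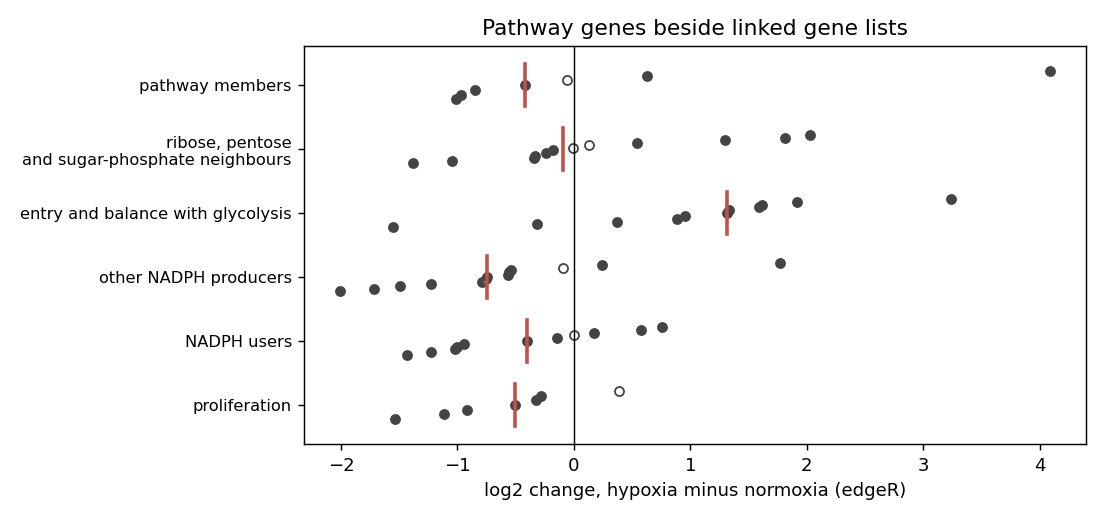
Log2 change in hypoxia (edgeR) of each tested gene of the pathway and of 5 linked lists; filled points passed an adjusted p of 0.05, open ones did not, and the red bar is the list's median. The glycolysis list lies mostly right of 0 (median 1.31) and the other NADPH producers mostly left (median -0.75). The median of the pathway includes TKTL1.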

How the data were processed

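The authors deposited 1 table of 251062 Ensembl transcript rows with their length and, for each library, RSEM's expected count and FPKM. The submitters' processing notes name cutadapt, HISAT2, RSEM and GRCh38 (hg38). No version, annotation or strand setting is given in the sources used here. The expected counts, as deposited, were summed per gene with GENCODE release 29 (202907 rows, 58478 genes) and rounded. The 48155 rows without a gene, 6.12% to 6.39% of counts, stayed out. The 6 deposited FPKM columns were not used. FPKM was recomputed from the expected counts and deposited lengths, which are not effective lengths.

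Genes were kept by filterByExpr, scaled by TMM and compared by the quasi-likelihood test of edgeR 4.0.16 (two-sided, R 4.3.3), with Benjamini-Hochberg adjustment over 17396 genes and a threshold of 0.05. Transcripts (63530) and transcript usage (diffSpliceDGE, 11000 genes) were tested likewise. The scripts were tested on simulated data. Alternatives were DESeq2 1.42.0, limma 3.58.1 on log2(FPKM + 0.1, 0.5 or 1), other scalings, filters and transcript sums, and leaving out each library.

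Named were all members; per list, up to 4 called genes with the largest change, no overlap and a mean FPKM of 1 or more; the 3 genes most like each member; and transcripts with 10% or more of a member. Other listed genes are named to show the spread and were chosen after their values were seen. Some items that the rule picks are not reported here. The members and lists were chosen with earlier results of these data known.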

Additional observations from a re-analysis of the deposited data

How the results depend on the processing

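Counts of changed genes ran from 11815 to 13458 over 15 alternatives (11882 to 12439 with a library left out), and counts of changed members from 5 to 7 over 16. With a filter of mean FPKM 0.5 in a group, TKTL1 was not tested and 1 member was higher. The log2 changes of PGD (-0.57 to -0.39), RPIA (-1.16 to -0.96) and TALDO1 (-1.12 to -0.94) kept their direction and call in all 16, as did TKT, which fell by 0.81 with protein-coding transcripts only and fell by 1.00 with library totals. RPE ran from -0.37 to -0.02, and only library totals gave it a call. Changed member transcripts numbered 10 to 14 over 8 alternatives, and members with changed usage 0 in all 8. Without normoxia C2, the log2 change of RPE-206 turned from 0.20 to -0.11 (-0.11 to 0.42 with each library left out), none of which passed. The cause was not tested. TKT-204 passed with library totals (-0.96, edgeR adjusted p = 0.0366). TKT-203 without 1 library ran from -0.55 to -0.30. No paired analysis was possible because the table's columns carry no replicate number of the labels. Depth limits TKTL1 most, with at most 31 counts in a library.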

Other observations

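Regulators linked to the pathway in general knowledge all passed the test (edgeR, adjusted p under 0.05), 7 higher and 4 lower (72.8% of all tested genes passed, 36.5% higher and 36.3% lower), with a median log2 change of 0.31 against 0.02 for all tested genes. BACH1, a repressor that competes with NRF2 for its sites, rose from 84.0 ± 3.62 to 270.5 ± 9.67 CPM (SD, n = 3 each; log2 change 1.69). MYC, a growth factor-responsive transcription factor, fell from 1001 ± 15.8 to 322.7 ± 17.1 CPM (-1.63). EPAS1, the hypoxia-inducible factor HIF-2α, rose by 0.91 and HIF1A by 0.19. SREBF2, which drives sterol synthesis genes, rose by 0.40, while its relative SREBF1 fell by 0.31. NFE2L2, which encodes NRF2, fell by 0.25 and its inhibitor KEAP1 rose by 0.31. These are transcript levels and say nothing of protein or activity.

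By correlation of log2 CPM over the 6 libraries, the protein-coding genes most like TALDO1 were NQO1 (Pearson r = 0.9999), ATOH8 (0.9998) and COA7 (0.9997). THOC5 and PPP1R10 were among those most like TKT (0.9998 each). For RPIA they were CRCP, ZC3H7A and CEP97. For PGD they were MAGEF1, PARN and CHCHD7 (0.9993 to 0.9985), for PGLS UBXN6, GPC1 and EIF1AD (0.9999 to 0.9995), and for TKTL1 ZNF839, TFF2 and PTPRM (0.9979 to 0.9973). RPE was most like NKIRAS1 (0.991), CPM, which encodes carboxypeptidase M (0.984), and ENSG00000255641 (0.977). With 2 groups of 3 libraries, such a value mostly restates the group difference: of 11550 genes compared, 3631 had r over 0.95 with TALDO1, 2615 with PGLS and 6 with RPE.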
